A study of Homo sapiens with 4 samples.

Results

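The distal end of the long arm of chromosome 21 forms 1 of the dense blocks of a list of ATAC-seq peaks from T47D-MTVL breast cancer cells. Its members are all listed lines on chromosome 21 whose summit (where the signal of a peak is highest) lies from 43000000 to 48129895 on the hg19 genome, a stretch of 5.13 Mb. There are 4501 such summits in 2382 regions, of 371521 summits in 197823 regions in all, where a region is a distinct start and end that may hold several summits. The stretch was chosen by the number of listed summits per window in this same list. Its high density is therefore a description, carries no test and supports nothing further. It is set beside the 28 Mb of the same arm from 15 to 43 Mb, called the proximal stretch here, which held 1037 summits in 758 regions.

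ATAC-seq measures how open chromatin is by letting the Tn5 transposase insert sequencing adapters into accessible DNA. It was run on 4 samples of 75000 cells each. In 2 of them (multiH1sh, the knock-down) the cells carried an shRNA against several variants of linker histone H1, and in the other 2 (RDsh, the control) a random shRNA. All were T47D cells of the MTVL derivative, an established luminal breast cancer line with 1 stably integrated copy of a luciferase gene under the MMTV promoter. The comparison addressed how DNA accessibility changes when several H1 variants are lost. Each group has replicates 1 and 2, and whether these were separate cultures is not stated in the labels. The processed data used here are 1 list without a value per sample, whose track line reads 225sh, Differential and RDsh. The name under which the list was deposited has multiH1sh in the place of 225sh, which ties 225sh to the knock-down. How the list was set against RDsh is not given in the sources used here. No value below is thus a test of knock-down against control, none has a spread between replicates, and folds, p-values and q-values of single summits are the authors'. All differences described below were between parts of 1 list and were not tested, because neighbouring summits are not independent replicates.

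Linker histones of the H1 family sit where DNA enters and leaves the nucleosome and are known to favour compact chromatin. The distal band of 21q is known as the gene-rich end of a chromosome that is otherwise gene-poor. It carries the trefoil factor genes TFF3, TFF2 and TFF1, which encode small secreted peptides that protect mucous surfaces. In breast cancer cells TFF1, long known as pS2, is a classical oestrogen-induced gene, and TFF3 is also expressed in luminal tumours, whereas TFF2 is known mainly from the stomach. Further on lie genes with very different uses. They include COL6A1 and COL6A2 (chains of collagen VI), AIRE (which drives the display of tissue antigens in the thymus), DNMT3L (a cofactor of the DNA methyltransferases), CBS (an enzyme of homocysteine metabolism) and 2 families of hair keratin-associated proteins, KRTAP10 and KRTAP12.

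The list could be placed beside genes only by their order, since the gene table used here (RefSeq, GRCh38.p14) is of another build than the peaks. By that annotation, 75 protein-coding genes lie from TFF3 to the end of the chromosome. All 16 KRTAP10 and KRTAP12 genes are among them, as are AIRE, ICOSLG (a ligand that costimulates T cells), ITGB2 (an integrin subunit of white blood cells) and UBASH3A (a regulator of T cell signalling). Over the 4.40 Mb of hg19 from the start of the trefoil cluster to the end of the block this gave 17.0 genes per Mb. The 164 protein-coding genes before TFF3, divided by the 28.73 Mb from 15 Mb to the trefoil cluster, gave at most 5.71 genes per Mb, because some of them may lie before 15 Mb. Which summit belongs to which gene was not analysed here.

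The block held 877 summits per Mb, against 37.04 in the proximal stretch, a ratio of 23.7. With each region counted once the densities were 464 and 27.07 per Mb, a ratio of 17.2. Regions covered 896 kb of the block, or 17.5% of its length, and 201 kb or 0.718% of the proximal stretch. The block took 71.1% of the 6334 summits of chromosome 21, the proximal stretch 16.4%, and the other 796 summits lay before 15 Mb. Of 513 windows of 10 kb, 435 (84.8%) held at least 1 summit in the block, against 418 of 2800 (14.9%) in the proximal stretch. The proximal stretch was itself uneven: from 16 to 32 Mb no window of 1 Mb held more than 20 summits. The fullest windows were those from 15 to 16 Mb with 131 summits and from 38 to 39 Mb with 123. Against the last 10 Mb before the block alone, the ratio of densities was 11.6.

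**Figure D1:**
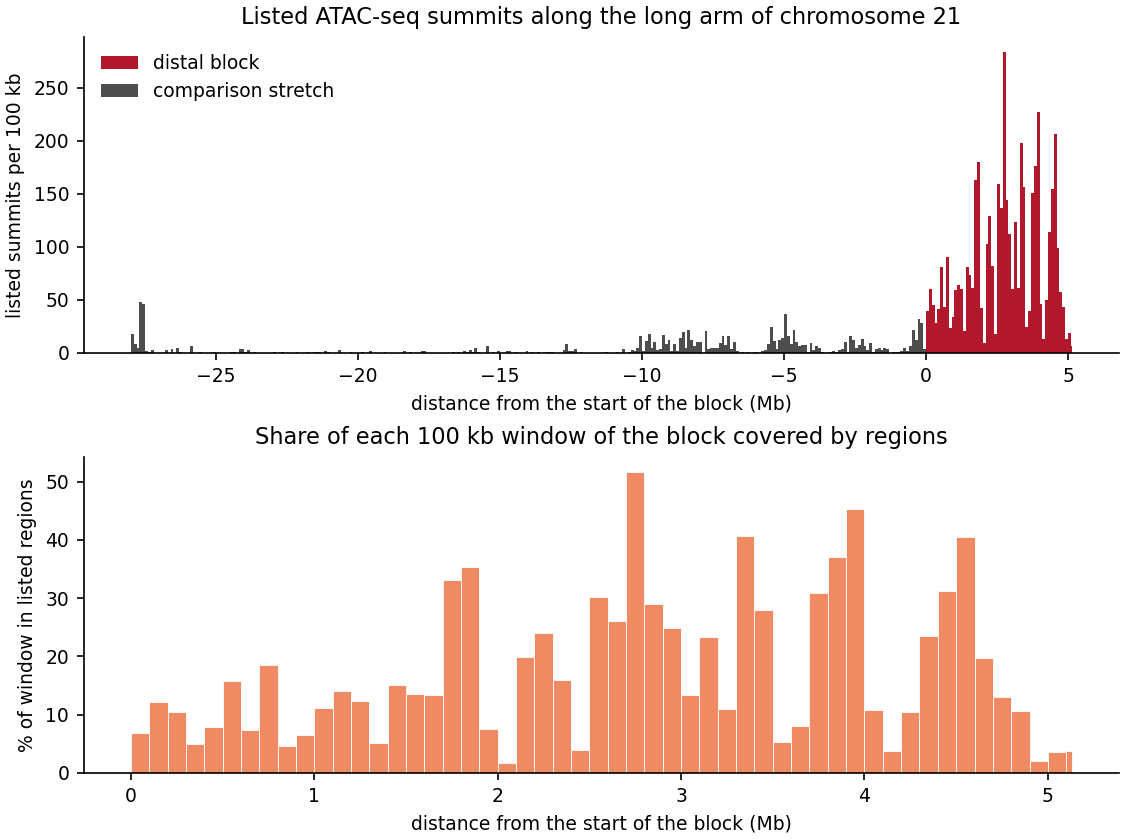
Top, listed summits per 100 kb along the long arm against the distance from the start of the block in Mb (red, block; grey, proximal stretch). Bottom, percent of each 100 kb window of the block that lies in listed regions. Inside the block full windows held 9 to 284 summits, and 33 of its 52 windows exceeded the highest proximal window, which held 48.

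No summit was listed between the first one of the block, at 43013666, and the last one before the limit, at 42953884. The window from 43 to 43.1 Mb had 39 summits, against 4 in the one from 42.9 to 43 Mb, but the windows from 42.7 to 42.8 and from 42.8 to 42.9 Mb, outside the limit, already had 32 and 28. The first summits inside the limit, at 43013666, 43018127 and 43019500, had 10, 14 and 20 reads. The last ones outside it, at 42939340, 42953390 and 42953884, had 13, 11 and 13 reads. These pileups overlapped across the limit, but so few summits do not show whether both sides were alike. At the other end the last listed region ran from 48118757 to 48119559, with 4 summits and at most 27 reads, 10.3 kb before the end of the block.

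Density was highest in the middle of the block and lower towards its start and the chromosome end. The windows of 1 Mb that start at 43, 44, 45, 46 and 47 Mb held 484, 804, 1177, 1215 and 796 summits. The last 129.9 kb held 25. The share of length in regions was 9.47%, 16.05%, 22.7%, 24.3% and 16.6%. The part with the trefoil genes, from 43 to 44 Mb, was thus the sparsest full Mb of the block. It also had the lowest share of regions with several summits, 18.99%, against 31.7% to 44.7% in the other 4 full Mb, and the lowest share of summits at 20 reads or more, 15.5%, against 20.1% to 26.0%. The trefoil cluster itself did not lie in a sparse part of this Mb. Its 100 kb window, from 43.7 to 43.8 Mb, was the fullest there, with 90 summits and 18.5% of its length in regions. The median full window of the block had 61 summits. The 60 kb of the cluster held only 36 of the 90 summits of its window, with 12.1% of their length in regions. Much of the window's count thus lay beside the cluster. Among windows of 60 kb through the block the median was 43 summits.

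The summits were unevenly spread over the windows of 100 kb. The 10 fullest windows of 100 kb held 1904 summits, or 42.3% of the block, and 8 of them lay beyond 45.5 Mb. The window from 45.7 to 45.8 Mb led with 284 summits in 63 regions, which covered 51.7% of its length. It was followed by the windows starting at 46.9 Mb (227 summits), 47.5 Mb (206), 46.3 Mb (198) and 44.8 Mb (180). The next 5 windows started at 46.8 Mb (176 summits), 44.7 Mb (163), 45.5 Mb (159), 46.4 Mb (156) and 47.4 Mb (155). By contrast, 8 full windows held 25 summits or fewer. The sparsest was from 45 to 45.1 Mb, with 9 summits in 9 regions, none with more than 17 reads, although the window after it had 103. The windows from 47.1 to 47.2 and from 47.9 to 48 Mb held 13 each. No window of the block was empty.

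The stretches without a listed region inside the block were short. The longest ran from 47063786 to 47124067 (60.3 kb), followed by those from 44632373 to 44683629 (51.3 kb), from 45003789 to 45051878 (48.1 kb), from 44206525 to 44252793 (46.3 kb) and from 45432416 to 45478066 (45.7 kb). In the block 21 stretches exceeded 20 kb and none exceeded 100 kb. In the proximal stretch 220 exceeded 20 kb, 69 exceeded 100 kb, and the longest was 1056 kb.

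Neighbouring regions of the block lay close together, with a median gap of 451 bp, against 5473 bp in the proximal stretch and 838 bp in the whole list. Joining regions less than 1 kb apart gave 740 runs in the block, of which 25 were 10 kb or longer and together held 1374 summits (30.5% of the block). The longest run of the block, from 45724455 to 45755662, spanned 31208 bp and held 146 summits in 28 regions, which covered 80.6% of it, yet no summit in it exceeded 31 reads. The next 2 runs of the block went from 47400482 to 47427338 (26857 bp, 110 summits, at most 38 reads) and from 47535641 to 47560852 (25212 bp, 104 summits, at most 45 reads). In the proximal stretch the longest run was 7935 bp. Regions that stood alone in this sense made up 13.4% of the block's regions and 52.4% of those in the proximal stretch. Runs and regions that stood alone were not computed for the whole list. Gaps under 1 kb made up 69.0% of gaps in the block, 30.5% in the proximal stretch and 53.4% in the whole list. Gaps and runs follow in part from the density by which the block was chosen.

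Single regions of the block were wider and held more summits than those before it. The median width was 242 bp in the block, 175 bp in the proximal stretch and 208 bp in the whole list. Regions with at least 2 summits made up 35.1% in the block (836 of 2382, 95% Wilson interval 33.2 to 37.0%). They made up 17.8% in the proximal stretch (135 of 758, 15.3 to 20.7%) and 28.2% in the whole list. Such intervals cover counting error only, since neighbouring summits share fragments and amplified reads without molecular identifiers can be copies of 1 molecule. The spacing of summits within a region was nearly the same everywhere, with a median of 157 bp in the block, 159 bp in the proximal stretch and 156 bp in the whole list. The wider regions of the block thus held more summits at the same spacing. The contrast with the proximal stretch is partly built in. A region with several summits adds several to the count by which the block was chosen.

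The widest region ran from 47537578 to 47542342 (4765 bp) and held 31 summits, the most of any region in the block. The lowest of them had 11 reads, the median one 18 and the highest 25, and neighbours lay 75 to 232 bp apart. It was a broad stretch of moderate signal with no single dominant point. Next in width came the regions from 45768628 to 45772135 (3508 bp, 16 summits), from 44817330 to 44820524 (3195 bp, 15 summits) and from 45737112 to 45740278 (3167 bp, 17 summits). The 10 widest regions had 15 to 31 summits each, and their strongest summits had 23 to 38 reads. Of these 10 regions 9 lay in the 10 densest windows, which held 42.3% of the block's summits. With each region counted once, the 10 fullest windows held 33.2% of the block's regions. That 9 of the 10 widest lay in the densest windows is partly built in, since a region with many summits raises the count of its own window. The block had 32 regions with 10 summits or more among its 2382, and the proximal stretch 2 among 758. This share was not computed for the whole list, where the fullest region held 260 summits. Regions of 2 kb or wider made up 0.966% in the block, 0.396% in the proximal stretch and 1.51% in the whole list. For 1 kb or wider the shares were 6.13%, 2.77% and 6.07%. Such wide regions thus set the block apart from the proximal stretch but not from the whole list.

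The height of a summit was read from its pileup, which is the count of reads that overlap it. The authors' fold equals (pileup + 1) / (background + 1), and fold and p-value together gave a whole pileup over a background of 2.01 reads for 4500 of the 4501 summits. With that background the fold gave a whole pileup for all 4501 (tolerance 0.02 reads). The background of 2.01 reads and the lowest listed pileup of 10 reads are the only measures of depth, so chromatin with fewer reads is not listed. Because the background was the same everywhere, a fold is a multiple of a genome-wide level and not of the control cells at that place. The median fold in the block was 5.65 (16 reads), against 4.99 (14 reads) in the proximal stretch and 5.32 (15 reads) in the whole list. These medians lie 1 or 2 reads apart, on a scale that moves in whole reads.

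In the block 23.2% of summits had 20 reads or more (1046 of 4501, 95% Wilson interval 22.0 to 24.5%). The share was 16.0% in the proximal stretch (166 of 1037, 13.9 to 18.4%) and 26.5% over the whole list. Counted by region, at the strongest summit, the order against the whole list turned round: 26.9% of the block's regions reached 20 reads, against 14.2% in the proximal stretch and 21.9% of all regions. Whether the block had more or fewer strong members than the list therefore depends on the unit counted, whereas it exceeded the proximal stretch on both. Very strong summits, with at least 50 reads, were 0.333% of the block (15 summits) and 0.289% of the proximal stretch (3 summits), against 1.44% of the whole list. Most of the block's summits were weak to moderate: 41.2% had 10 to 14 reads, 35.5% had 15 to 19 and 20.3% had 20 to 29.

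**Figure D2:**
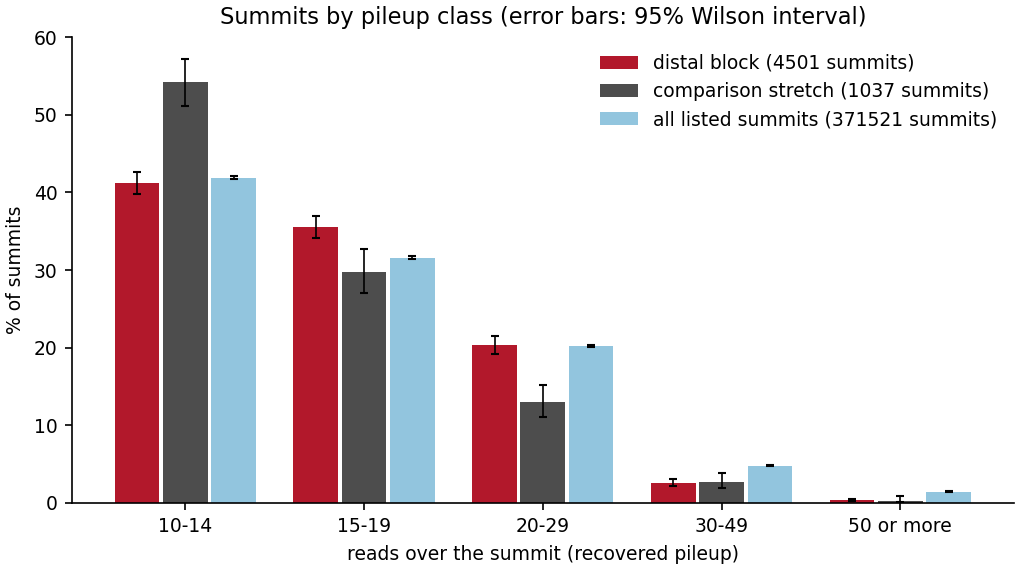
Percent of summits by pileup class (reads over the summit) in the block, the proximal stretch and the whole list; error bars are 95% Wilson intervals for counting error only. The block had 41.2% of its summits at 10 to 14 reads, against 54.2% in the proximal stretch and 41.9% in the whole list, and 2.58% at 30 to 49 reads, against 2.70% and 4.78%.

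Very strong regions were few in the block, where 10 regions (0.420%) reached 50 reads. The share was 0.396% in the proximal stretch and 0.779% of all listed regions. By far the strongest ran from 46796137 to 46796413 (277 bp, 2 summits), with 843 reads and a fold of 281. The second ran from 45134142 to 45134502 (361 bp, 1 summit) with 116 reads and a fold of 38.9. The others had 50 to 80 reads. They included the regions from 47474570 to 47475369 (80 reads), from 44755869 to 44757466 (79 reads), from 46474872 to 46475040 (76 reads, 169 bp wide) and from 46644281 to 46644652 (63 reads). None of the 10 strongest regions was among the 10 widest. In the proximal stretch the strongest region, from 15457287 to 15457429 (143 bp), had 203 reads, and the next 53.

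Denser windows of the block also held a larger share of regions with several summits, and somewhat higher summits. Across its 51 full windows of 100 kb the number of summits ran with the share of regions that held several summits (Spearman 0.79, Pearson 0.82). It ran less closely with the median fold (Spearman 0.64, Pearson 0.68) and with the share of summits at 20 reads or more (Spearman 0.56, Pearson 0.61). These are descriptions of windows of 1 list, which share the same libraries and depth, and the first is partly built in, since a region with several summits adds several to the count. The 10 densest windows had median folds from 5.32 to 6.32, and 18.75% to 34.95% of their summits reached 20 reads.

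**Figure D3:**
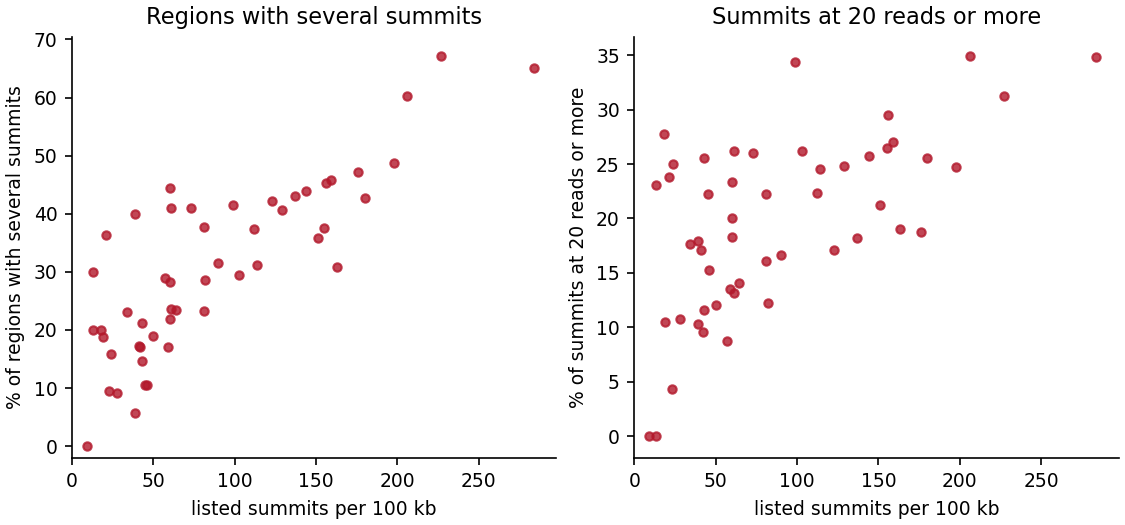
Each point is 1 of the 51 full windows of 100 kb in the block. Left, percent of regions with at least 2 summits against summits per 100 kb; right, percent of summits at 20 reads or more against summits per 100 kb. The window with 284 summits had 65.1% of regions with several summits and 34.9% of summits at 20 reads or more, and the window with 9 summits had 0 of each.

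The trefoil cluster, from 43730 to 43790 kb, was occupied but not dense for the block. It held 36 summits in 25 regions, or 600.0 per Mb, which is 0.684 times the density of the block and 16.2 times that of the proximal stretch. Among 85 windows of the same 60 kb laid end to end through the block, 44 had more summits and 40 had fewer, with a range from 2 to 215. Its summits had 10 to 30 reads with a median of 13.5 reads (fold 4.82), and 8 of 36 (22.2%, 95% Wilson interval 11.7 to 38.1%) reached 20 reads. Regions covered 12.1% of the window.

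The 25 regions fell into 5 groups separated by more than 3 kb. The first, from 43729920 to 43741935, held 19 summits in 14 regions, nearly all low, with a median of 13 reads. Its first region, from 43729920 to 43730365, had 1 summit of 20 reads in the window and another of 23 reads just before the window. Its next strongest region, from 43732656 to 43733178, had summits of 18, 19 and 12 reads. After 16.4 kb without a listed region came a pair of regions from 43758337 to 43759154, with 4 summits of 15 reads and 1 of 26 reads, and then a single summit of 15 reads in the region from 43763448 to 43763555.

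The fourth group, from 43767516 to 43773233, carried the strongest signal of the cluster. It held 9 summits in 6 regions with a median of 21 reads, and 6 of the 8 summits of the cluster that reached 20 reads. The highest, at 43767773 in the region from 43767516 to 43768045, had 30 reads and a fold of 10.3. The widest region of the cluster, from 43768778 to 43769828 (1051 bp), held summits of 21, 21 and 22 reads, and the region from 43772003 to 43772480 held 22 and 24 reads. The last group, after a further 11.9 kb without a listed region, had only the regions from 43785152 to 43785533 (15 reads) and from 43787529 to 43787646 (10 reads). Along the chromosome the genes follow each other as TFF3, TFF2 and TFF1, between ABCG1 (a cholesterol exporter) and TMPRSS3 (a membrane serine protease). The positions of the single genes on hg19 were not used here, so these groups are not assigned to TFF3, TFF2 or TFF1.

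**Figure D4:**
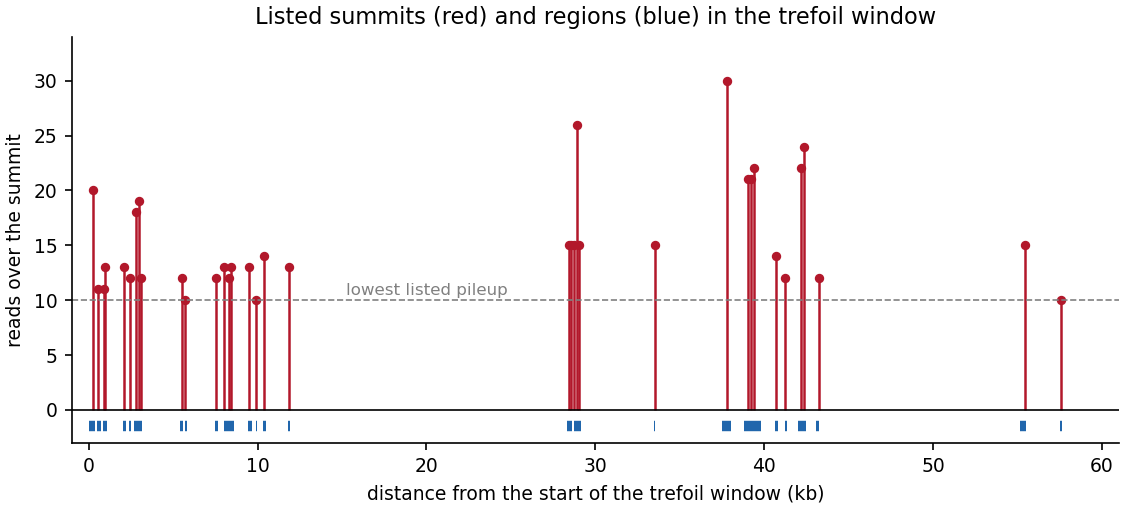
Reads over each of the 36 listed summits (red) and extent of the 25 listed regions (blue bars) against the distance in kb from the start of the 60 kb trefoil window; the dashed line marks the lowest listed pileup, 10 reads. The highest summit, with 30 reads, stands in the fourth group, and no region is listed for 16.4 kb after the first.

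The block was then set beside the ends of the other long arms. For this the last 5.13 Mb before the last listed region were taken on chromosomes 1 to 22 and X, and on chromosome 21 the same 4501 summits resulted. By density chromosome 21 ranked 8 of 23, with 877 summits per Mb, next to chromosome 12 with 863 and chromosome 14 with 1038. By median fold it also ranked 8, at 5.65 and level with chromosomes 4 and 20, against a median of 5.32 over the 23 ends. Without summits of 100 reads or more its median fold was 5.32 as well. By the share of summits at 20 reads or more it ranked 12, the middle of the 23, and by the share at 50 reads or more 18. Of the 9 ends at least as dense as that of chromosome 12, chromosome 21 had the lowest share at 20 reads or more, 23.2%, followed by chromosome 20 with 29.3%, whereas chromosome 12 had 35.7%. It also had the lowest share at 50 reads or more, 0.333%, followed by chromosome 17 with 0.461%. The lowest place depends on this cut. Chromosome 5, the next in density with 577 summits per Mb, was lower on both, with 22.2% and 0.270%. By the share of regions with several summits chromosome 21 ranked 9, at 35.1%, against 38.8% on chromosome 12 and 52.5% on chromosome 9. These ranks describe 1 list; the copy number of the arms in these cells was not analysed here.

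**Figure D5:**
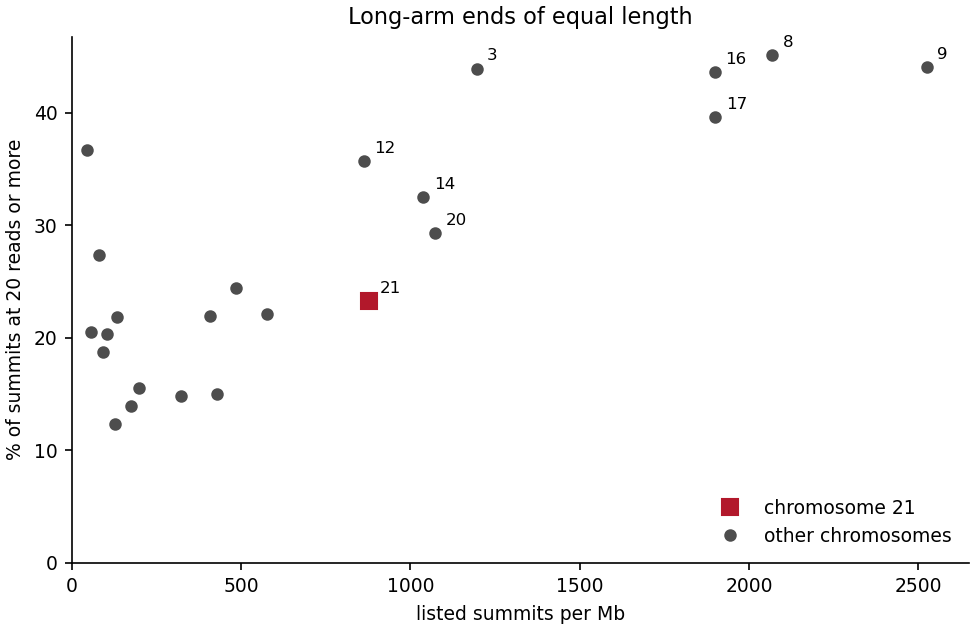
Percent of summits at 20 reads or more against listed summits per Mb in the last 5.13 Mb of 23 long arms (red square, chromosome 21; grey points, the other chromosomes; numbers name the 9 densest ends). Chromosome 21, at 877 summits per Mb and 23.2%, lies below the other 8 of the 9 densest ends, which range from 29.3% to 45.1%. The next end in density, chromosome 5 at 577 summits per Mb, had 22.2%.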

How the data were processed

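Per the labels' protocols, 75000 cells per sample were treated with Tn5 and the amplified libraries sequenced on an Illumina instrument. The submitters' processing notes name Bowtie 1.1.2, the build hg19 and MACS2. Not given in the sources used here are the settings of MACS2, the handling of duplicate reads and whether replicates were pooled. The deposited narrowPeak list gives each summit a fold (its signal as a ratio over background) and, as −log10 values, a p-value and a q-value. The deposited score is 10 times −log10 p without decimals. Positions are counted from 1.

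Pileup and background were solved from fold and p with a Poisson tail. The solver was tested on simulated data (500 lines with 1 background, 500 with differing ones) and recovered 100% of each. Shares carry 95% Wilson intervals. Python 3.11.15, numpy 2.4.6, scipy 1.17.1, pandas 2.3.3 and matplotlib 3.10.9 were used.

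Named are, by rule, the 10 densest windows of 100 kb, the 10 strongest and 10 widest regions, the 5 with most summits, the 5 longest stretches without a region, the members beside the lower limit and all regions of the trefoil window. Windows named beyond these, runs of regions and long-arm ends were chosen after the values were seen. Members and lists were chosen with earlier results of these data known. Without values per sample, knock-down and control could not be compared by any test. No genome of the list's build was used, so no region sequence is printed and genes were not assigned to summits.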

Additional observations from a re-analysis of the deposited data

How the results depend on the processing

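The alternatives with a comparison from 33 to 43 Mb and without regions of 50 reads or more were added after seeing the data. The block was chosen by density, so a ratio of densities above 1 was fixed in advance. Over 10 alternatives to the reported 23.7 the ratio ranged from 11.6 to 34.4. It was 17.2 with each region counted once, 16.9 with regions within 100 bp merged and 30.4 for summits at or above the median fold. It was 34.4 at 20 reads or more and 29.5 at a q-value under 1e-06. With the block from 42 and 44 Mb it was 22.0 and 26.3, and against 33 to 43 Mb it was 11.6. The number of summits (4501) became, by construction, 2382 with each region counted once, 2344 merged, 2646 at or above the median fold and 1046 at 20 reads or more. The median fold (5.65) was 5.32 in 4 alternatives, a shift of 1 read, and 6.32 at a q-value under 1e-06. The share at 20 reads or more (23.2%) was 26.9% by region. The share of regions with several summits (35.1%) was 37.9% from 44 Mb. The share in the 10 densest windows (42.3%) was 33.2% with each region counted once, 32.8% merged, 47.5% at or above the median fold, 51.4% at 20 reads or more, 45.6% in 20 windows of 50 kb and 37.8% in 5 windows of 200 kb. The share of chromosome 21 (71.1%) was 69.6% at or above the median fold, 58.9% at 20 reads or more, 72.9% from 42 Mb, 63.4% from 44 Mb and 69.7% without the densest window. The 36 trefoil summits became 16 at or above the median fold, 8 at 20 reads or more and 112 with the window widened by 50 kb on each side, and their density stayed below that of the block in all 6 alternatives (0.517 to 0.912 times), though the 95% interval reached above 1 with each region counted once (1.28), merged (1.34) and at 20 reads or more (1.28). Apart from shifts by construction, the causes were not tested. Of 56 values 27 stayed within the 95% interval of the reported value or, for counts, within 1.5 times of it. No paired analysis was possible because the deposited values are not split by sample, which also prevented leaving out a replicate. Summits under 10 reads are not listed, which limits all densities.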
